A study of Mus musculus with 18 samples.

Results

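The cytochrome P450 genes were examined in the adipose tissue of mice whose adipocytes lack CSN8, the smallest subunit of the COP9 signalosome, a complex that controls cullin-RING ubiquitin ligases. Members were the genes whose symbol is Cyp followed by a number, a letter group and a number, with at least 10 counts in at least 4 of the 18 libraries. Of 94 such symbols among the 55487 genes in the files, 44 passed. By the reactions for which the subfamilies are known, 16 of 49 xenobiotic, 10 of 15 steroid, 2 of 3 retinoid and 15 of 26 fatty acid P450 genes passed, together with the orphan Cyp20a1. Among the members, 20 had 10 or more counts in all 18 libraries. Just inside the minimum, with 4 libraries each, were Cyp7a1, Cyp3a13, Cyp3a11, Cyp2b9, Cyp2d9 and Cyp4f14. Just outside it were Cyp2c23 with 3 libraries and Cyp1a2, Cyp26a1, Cyp2a12, Cyp2a5, Cyp2c29 and Cyp4a31 with 2 each.

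RNA came from subcutaneous white adipose tissue (sWAT) of mice 12 weeks old, 4 Ctrl and 4 Csn8AKO, and from brown adipose tissue (BAT) of mice 4 weeks old, 5 Ctrl and 5 Csn8AKO. All were males on chow, fasted for 4 hours, with 1 mouse per library. Ctrl mice were Csn8 f/f littermates. Csn8AKO mice were Csn8 f/f and also carried Cre under the adiponectin promoter, which is active in adipocytes, so that the other cells of the tissue keep the gene. Tissue and age differ together, and their parts in any difference between sWAT and BAT cannot be told apart. In whole tissue, fewer cells of a type and less RNA per cell cannot be told apart either.

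Cytochrome P450 enzymes are heme proteins of the endoplasmic reticulum or the mitochondrion that insert an oxygen atom into a substrate. The microsomal enzymes take their electrons from the reductase Por, and the mitochondrial ones from ferredoxin (Fdx1) and its reductase (Fdxr). The xenobiotic families oxidize drugs, solvents and toxins and are best known from liver, where receptors such as Ahr, Nr1i3 (CAR) and Nr1i2 (PXR) induce them. The other classes make or break down steroid hormones, bile acids and vitamin D, clear retinoic acid, or oxidize fatty acids and eicosanoids. In adipose tissue these substrates include stored lipophilic compounds, cholesterol, retinoids and the fatty acids themselves.

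Each library held between 15835721 and 66719937 counts. Levels are given as CPM, counts scaled to a common library size with TMM factors taken within each tissue. Cops8, which encodes CSN8, was between 33.9 and 36.2 CPM in Ctrl sWAT and between 29.2 and 36.0 in Csn8AKO sWAT, and the test did not separate them (adjusted p = 0.623). In BAT it was between 36.5 and 44.6 in Ctrl and between 28.2 and 36.9 in Csn8AKO (log2 fold change -0.30 ± 0.09 SE, adjusted p = 0.0211). A count over the whole gene includes the exons that Cre leaves in place and the cells without Cre. The summed level of 8 brown adipocyte markers was 4374 to 9201 CPM in BAT, where the groups overlapped. In sWAT it was 73.4 to 149 CPM in Ctrl and 11.4 to 27.6 CPM in Csn8AKO. The 10 adipocyte markers were above 0 in every library. Some libraries stood apart. In sWAT, Ctrl 1 and Csn8AKO 2 had 161 and 421 CPM of 6 B cell markers, against 3.80 to 13.3 in the others. Ribosomal RNA genes took 31.8% and 47.8% of the counts of Csn8AKO sWAT 3 and 4 and 18.2% and 19.8% of those of Ctrl sWAT 2 and 3, against 1.80% to 4.83% in the other 4 sWAT libraries. They took 15.1% in Csn8AKO BAT 2 and 10.1% in Ctrl BAT 1, against 0.863% to 4.10% in the other BAT libraries. The 9 skeletal muscle markers summed to 2980 CPM in Ctrl sWAT 3, to 1784 in Csn8AKO sWAT 4, and to 124 and 215 in Csn8AKO BAT 1 and 5, against 1.70 to 3.20 in the other BAT libraries.

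The P450 profile of the control tissues was led by different genes in sWAT and BAT. Per length of gene, Cyp2e1, which oxidizes ethanol, acetone and other small molecules, had by far the highest level in Ctrl sWAT, at 682 ± 316 CPM per kilobase (SD, n = 4). Next came Cyp2f2, known for the oxidation of naphthalene, at 27.3 ± 9.19, Cyp4b1, a fatty acid and xenobiotic oxidase, at 17.3 ± 1.94, and Cyp27a1, the mitochondrial enzyme that oxidizes the sterol side chain, at 16.7 ± 1.70 CPM per kilobase. Cyp4b1 and Cyp27a1 lay within each other's spread.

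In Ctrl BAT the order began with Cyp27a1 at 23.8 ± 3.40 and Cyp4b1 at 21.4 ± 8.15 CPM per kilobase (SD, n = 5), again within their spread. Cyp2d22, of the family that oxidizes many drugs, followed at 16.9 ± 2.33, then Cyp2e1 at 13.4 ± 8.48 and Cyp2u1, which hydroxylates long-chain fatty acids, at 12.0 ± 1.42. Cyp26b1 was the leading retinoid gene in both tissues, at 2.15 CPM per kilobase in Ctrl sWAT and 2.13 in Ctrl BAT. Cyp20a1, whose substrate is not established, was at 7.69 and 4.00.

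**Figure D1:**
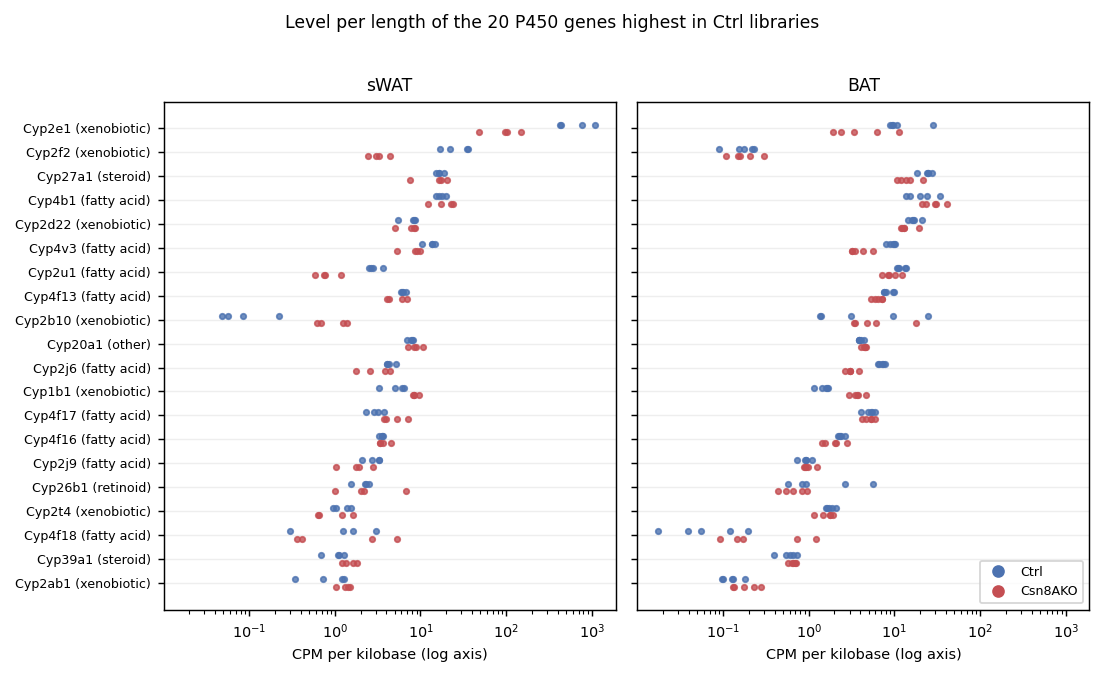
Level per length, in CPM per kilobase on a log axis, of the 20 P450 genes with the highest mean in Ctrl libraries of either tissue. Each point is 1 library, blue for Ctrl and red for Csn8AKO, with sWAT on the left (n = 4 per group) and BAT on the right (n = 5 per group); Cyp2e1 leads Ctrl sWAT and is far lower in BAT.

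In sWAT, Csn8AKO mice had less mRNA of Cyp2e1, Cyp2f2 and Cyp2u1 and more of Cyp2b10 and Cyp2b9. The 3 that fell were between 3.54-fold and 8.31-fold lower, and Cyp2b9 went from no count in any Ctrl library to a low level in every Csn8AKO library. Of the 34 members that passed the filter on low counts, 2 were called higher and 3 lower at an adjusted p under 0.05 (edgeR's quasi-likelihood test, adjusted over 18843 genes). Over all genes tested, 2.30% were called higher and 3.00% lower, 434 and 566 genes. Both members called higher passed the filter only through the Csn8AKO group, where they were high. With scaling by library size alone the same 2 and 3 members were called, while the calls over all genes were 106 higher and 328 lower. The median log2 fold change of the tested members was 0.16, against 0.03 over all genes, and 20 of the 34 were positive. Groups did not overlap for 7 members on the higher side, against 5.80% of all genes, and for 4 on the lower side, against 8.23%.

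The xenobiotic class held 4 of the 5 sWAT calls, 2 in each direction among 12 members tested. Each direction was 16.7% of the class, against 2.30% higher and 3.00% lower over all genes tested. The 2 called higher, Cyp2b10 and Cyp2b9, passed the filter only through the Csn8AKO group, so the higher share does not describe the class. Cyp2e1 (chr7:140763739-140774987, + strand, GRCm38) had 935, 929, 2352 and 1667 CPM in the Ctrl libraries and 320, 105, 221 and 210 CPM in the Csn8AKO libraries. The lowest Ctrl library was well above the highest Csn8AKO library. The means were 1471 ± 682 and 214 ± 87.9 CPM (SD, n = 4), a log2 fold change of -2.78 ± 0.41 SE (adjusted p = 0.00641). Cyp2e1 made up 78.6% to 88.0% of the summed P450 level per length in Ctrl sWAT and 33.2% to 57.9% in Csn8AKO sWAT. The summed level of the 44 members was 548 to 1238 CPM per kilobase in Ctrl and 147 to 256 in Csn8AKO. Without Cyp2e1 the sums were 117 to 148 and 98.1 to 121 CPM per kilobase, and the groups overlapped.

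Cyp2f2 (chr7:27119909-27133660, + strand) was at 44.9, 34.3, 71.9 and 69.9 CPM in Ctrl sWAT and at 6.71, 4.98, 6.14 and 8.82 CPM in Csn8AKO sWAT. The groups were far apart, with a log2 fold change of -3.06 ± 0.28 SE (adjusted p = 0.000837). The antisense gene Gm15883 covers 13.5% of its exons and had 63 counts over all libraries, against 4857 for Cyp2f2. In BAT the same gene was near the bottom of the range, with 0.180 to 0.465 CPM in Ctrl and 0.219 to 0.602 CPM in Csn8AKO.

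The other sWAT fall was in the fatty acid class. Cyp2u1 (chr3:131288441-131303227, - strand), which hydroxylates arachidonic acid and other long-chain fatty acids, was at 13.1, 19.1, 13.7 and 14.6 CPM in Ctrl and at 3.89, 3.08, 4.00 and 6.21 CPM in Csn8AKO. No library of one group reached the other, and the log2 fold change was -1.82 ± 0.24 SE (adjusted p = 0.00379). The opposite-strand gene 4930534D22Rik covers 10.5% of its exons, with 391 counts against 28873.

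The members that rose in sWAT were Cyp2b genes of 1 stretch of chromosome 7. Other members nearby did not rise with them. Cyp2s1 and Cyp2t4 were not called (adjusted p = 0.875 and 0.772), and Cyp2f2 fell. Cyp2b enzymes are the classical targets of phenobarbital in liver, where they are induced through CAR. Cyp2b10 (chr7:25897620-25926624, + strand) was at 0.181, 0.101, 0.118 and 0.467 CPM in Ctrl and at 1.30, 1.45, 2.96 and 2.62 CPM in Csn8AKO. The groups did not overlap, and the log2 fold change was 3.20 ± 0.53 SE (adjusted p = 0.00924). The Ctrl libraries held only 2 to 9 counts each and the Csn8AKO libraries 28 to 43, so the gene passed the filter only through the group where it was high.

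Cyp2b9 (chr7:26173411-26210661, + strand) had 0 counts in the 4 Ctrl libraries and 1.48, 0.724, 3.31 and 4.26 CPM in the Csn8AKO libraries, or 16 to 57 counts each. Set against 3 counts over the Ctrl group (0.0385 CPM), its mean of 2.44 CPM was at least 63.5-fold higher in Csn8AKO (adjusted p = 0.0108). Like Cyp2b10, it passed the filter only through the Csn8AKO group. Cyp2b13 (chr7:26061497-26096197, + strand), which lies between these 2 genes, also had 0 counts in the Ctrl libraries and 0.741, 0.181, 1.10 and 0.897 CPM in Csn8AKO. It did not pass the filter in either tissue and was not tested within sWAT, and its mean of 0.731 CPM was at least 18.99-fold above the same floor. All 3 Cyp2b genes were thus low or undetected in every Ctrl sWAT library and detected in every Csn8AKO one.

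The Csn8AKO libraries with the most ribosomal RNA, 3 and 4, had the highest Cyp2b9 and Cyp2b10 levels. Without them, with 2 Csn8AKO libraries left, the log2 fold changes were 7.48 for Cyp2b9 (adjusted p = 0.0667), 2.60 for Cyp2b10 (adjusted p = 0.0967) and -2.80 for Cyp2e1 (adjusted p = 0.0793), so those calls were lost, while Cyp2f2 (-3.26) and Cyp2u1 (-2.14) were still called (adjusted p = 0.0179 for each). Without the libraries with the most muscle marker RNA, Ctrl 3 and Csn8AKO 4, Cyp2b10 lost its call (2.88, adjusted p = 0.0642), as it did in 1 fit for all groups (adjusted p = 0.113), and the other 4 were called. Without the libraries rich in B cell markers all 5 were called, with Cyp1b1, Cyp2r1, Cyp4f17 and Cyp4v3 in addition.

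**Figure D2:**
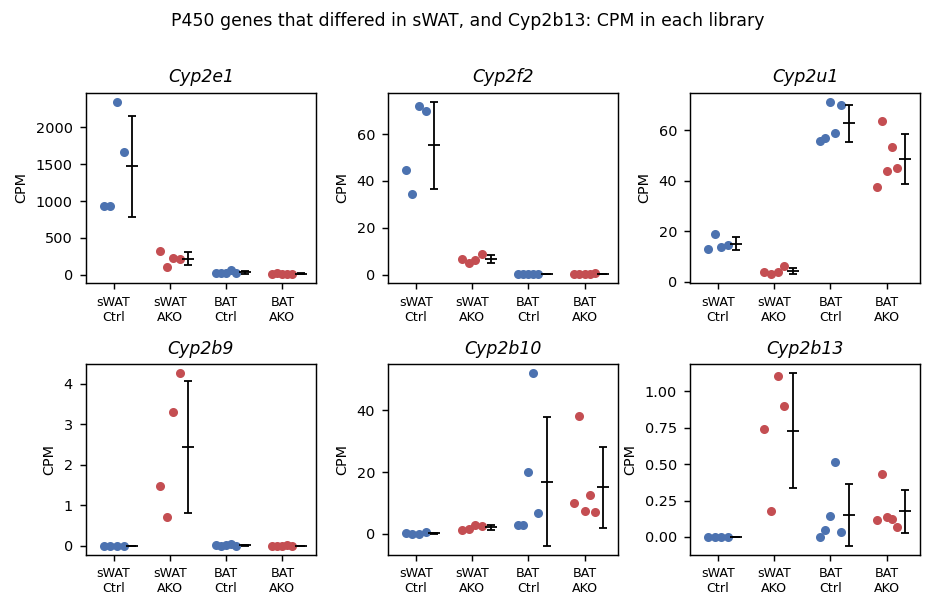
CPM of the 5 P450 genes called in sWAT and of Cyp2b13, which was not tested within a tissue. Each point is 1 library (blue Ctrl, red Csn8AKO, written AKO on the axis, n = 4 per sWAT group and 5 per BAT group) and the black marks give mean ± SD. The Cyp2b9 and Cyp2b13 points lie at 0 in all Ctrl sWAT libraries, and Cyp2e1 and Cyp2f2 are highest in Ctrl sWAT among the 4 groups.

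The sequences before the start sites of these genes are shown because the 3 Cyp2b genes moved together at 1 locus and because Cyp2e1 and Cyp2f2, the most abundant members of sWAT, fell. They are the 250 bases upstream of the RefSeq start on GRCm38.p6, 5′ to 3′ on the strand of the gene. Capitals mark matches on either strand to 4 motifs. TATAAA is the TATA box. The letters CCAAT form the core of the element named after them. The letters GCGTG form the core of the element that binds AHR with ARNT. A nuclear receptor site may hold AGGTCA. The regions are chr7:26173159-26173408 for Cyp2b9, chr7:26061245-26061494 for Cyp2b13, chr7:25897408-25897657 for Cyp2b10, chr7:140763569-140763818 for Cyp2e1 and chr7:27119705-27119954 for Cyp2f2, all on the + strand.
Cyp2b9: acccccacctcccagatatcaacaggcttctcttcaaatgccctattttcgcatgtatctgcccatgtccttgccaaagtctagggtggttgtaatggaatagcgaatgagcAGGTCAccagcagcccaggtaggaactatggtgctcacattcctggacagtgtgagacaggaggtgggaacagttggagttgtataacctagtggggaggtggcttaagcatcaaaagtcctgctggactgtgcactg
Cyp2b13: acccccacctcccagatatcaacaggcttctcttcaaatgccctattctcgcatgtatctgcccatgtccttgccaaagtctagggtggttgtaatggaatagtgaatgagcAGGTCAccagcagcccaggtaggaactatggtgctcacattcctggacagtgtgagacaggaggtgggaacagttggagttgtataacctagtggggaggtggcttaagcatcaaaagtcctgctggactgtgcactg
Cyp2b10: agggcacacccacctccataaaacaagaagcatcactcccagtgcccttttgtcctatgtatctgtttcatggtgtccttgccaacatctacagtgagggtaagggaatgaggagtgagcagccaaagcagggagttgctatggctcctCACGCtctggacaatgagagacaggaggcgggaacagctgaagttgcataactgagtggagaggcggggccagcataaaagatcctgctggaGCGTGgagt
Cyp2e1: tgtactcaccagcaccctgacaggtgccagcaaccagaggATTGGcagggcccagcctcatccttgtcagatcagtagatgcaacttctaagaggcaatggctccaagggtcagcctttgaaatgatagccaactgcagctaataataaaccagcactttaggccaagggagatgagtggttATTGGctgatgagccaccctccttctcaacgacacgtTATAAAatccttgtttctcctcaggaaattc
Cyp2f2: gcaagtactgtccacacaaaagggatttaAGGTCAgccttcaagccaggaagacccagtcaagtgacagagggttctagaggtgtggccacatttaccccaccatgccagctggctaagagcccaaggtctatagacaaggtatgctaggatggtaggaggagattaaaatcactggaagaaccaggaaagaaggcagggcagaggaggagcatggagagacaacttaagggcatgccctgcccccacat

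The Cyp2b9 and Cyp2b13 sequences differed by 2 edits over 250 bases (99.2% identity), and each was 70.0% identical to that of Cyp2b10. Both hold AGGTCA once and none of the other 3 motifs, whereas Cyp2b10 holds GCGTG or its complement at 2 places. Cyp2e1 holds the TATA box once and CCAAT at 2 places, counted over both strands, and Cyp2f2 holds AGGTCA. Over 32851 RefSeq promoters cut to the same 250 bases, 14.0% held AGGTCA and 17.1% of the 35 members with an entry did. The measures differ, because a member counted if any of its promoters held the motif, and Cyp4f14 and Cyp11a1 have more than 1. For GCGTG the shares were 28.2% of all promoters and 31.4% of members. The TATA box was in 12.4% and 25.7%, and the CCAAT core in 33.9% and 48.6%. A match describes the letters in this window only. The longest transcripts of Cyp2b9 and Cyp2b13 were 89.3% identical, but they shared no exact window of 150 bases, the read length. Uniquely aligned reads could thus be told apart between these 2 genes. Cyp2b13 shared 5.04% of its windows with another gene, Gm45225.

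Among the remaining members of the xenobiotic class, Cyp1b1, which oxidizes estradiol and aromatic hydrocarbons, was at 37.7, 18.99, 29.7 and 35.1 CPM in Ctrl sWAT and at 56.8, 49.6, 49.0 and 47.6 CPM in Csn8AKO sWAT. The groups did not overlap, but the adjusted p was 0.0578 (log2 fold change 0.74 ± 0.20 SE). It was called in 7 of 19 alternative fits, DESeq2 and limma voom included. Cyp1a1, the best known target of AHR, was at 2.42 ± 1.36 and 1.40 ± 1.29 CPM (SD, n = 4, adjusted p = 0.537).

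A further set of members are typical of liver, and in sWAT they were high in the same 4 libraries. Cyp3a11, a drug-oxidizing enzyme, was at 0.272, 0.810, 4.44 and 0 CPM in Ctrl sWAT and at 0, 0.0905, 0.965 and 2.02 CPM in Csn8AKO sWAT. Cyp7a1, the rate-limiting enzyme of bile acid synthesis, was at 0, 2.13, 1.78 and 0.312 CPM and at 0, 0.0453, 1.10 and 3.44 CPM. Cyp2d9, of a drug-oxidizing subfamily, was at 0, 0.861, 2.90 and 0 CPM and at 0, 0, 0.827 and 1.20 CPM. In each case Ctrl 2 and 3 and Csn8AKO 3 and 4 were the high libraries. The 7 hepatocyte markers summed to 32.0, 85.3, 179 and 27.1 CPM in Ctrl and to 23.3, 4.98, 45.6 and 88.8 CPM in Csn8AKO, with Alb, the albumin gene, at 2.04 to 135 CPM. The highest 4 libraries of that sum were the same 4, and these were also the 4 with the most ribosomal RNA, at 18.2%, 19.8%, 31.8% and 47.8% of counts. The part of hepatocyte RNA or of RNA quality in these levels was not tested. None of the 3 genes was called in sWAT, and in BAT each stayed at or below 0.158 CPM, where the hepatocyte markers summed to 0.194 to 3.78 CPM.

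No steroid P450 was called in sWAT. Of 8 tested, 7 had a positive log2 fold change, Cyp7a1 among them at 0.06 ± 1.48 SE, against 53.3% of all genes, and the median was 0.85, against 0.03. With edgeR, 5 were higher at an unadjusted p under 0.05. That share was not counted over all genes, so no excess can be read from it. DESeq2 called 1 higher and limma voom 2, while over all 18843 genes they called 912 and 1064 higher. Cyp11a1, the mitochondrial enzyme that cuts the cholesterol side chain to give pregnenolone, was at 1.58, 1.11, 0.474 and 1.25 CPM in Ctrl and at 2.96, 2.63, 2.14 and 2.24 CPM in Csn8AKO (log2 fold change 1.16 ± 0.36 SE, adjusted p = 0.0940). Cyp7b1, which hydroxylates oxysterols, was at 0.905, 0.405, 1.30 and 0.415 against 1.57, 2.22, 1.45 and 1.65 CPM (adjusted p = 0.137). Cyp8b1, the bile acid enzyme that decides how much cholic acid is made, was at 1.27, 1.67, 1.30 and 2.39 against 3.43, 2.72, 2.90 and 2.54 CPM (adjusted p = 0.140). In all 3 the groups did not overlap, yet none passed. Cyp27a1 was at 32.5, 35.7, 41.4 and 35.8 CPM in Ctrl and at 44.0, 16.4, 38.1 and 35.9 CPM in Csn8AKO, with the groups overlapping (adjusted p = 0.852), and Csn8AKO 2, rich in B cell markers, was its low library.

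In the fatty acid class, 11 members were tested in sWAT and 1 (9.09%), Cyp2u1, was called lower, against 3.00% of all genes. Cyp4v3, an enzyme of omega oxidation, was at 39.4, 52.3, 52.1 and 56.6 CPM in Ctrl and at 37.4, 20.1, 34.3 and 32.98 CPM in Csn8AKO. These groups did not overlap, and the adjusted p was 0.0777. Cyp4f17 went the other way, at 9.67 ± 1.91 CPM in Ctrl and 16.2 ± 5.09 CPM in Csn8AKO (SD, n = 4). Its groups did not overlap either (log2 fold change 0.74 ± 0.24 SE, adjusted p = 0.109). DESeq2 and limma voom called Cyp4v3 lower and Cyp4f17 higher. Cyp4b1, the most abundant of the class, did not differ by the test (39.005 ± 4.37 against 42.8 ± 11.9 CPM, adjusted p = 0.767). Cyp4f18, of the family that inactivates leukotrienes, was at 5.57, 0.557, 2.31 and 3.01 CPM in Ctrl and at 5.09, 9.96, 0.758 and 0.673 CPM in Csn8AKO. Csn8AKO 2 and Ctrl 1, the libraries rich in B cell markers, were the highest, and Csn8AKO 1, which was not rich in them, was close to Ctrl 1.

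The retinoid class holds Cyp26b1 and Cyp26c1, which break down retinoic acid. In sWAT Cyp26b1 was at 12.1, 13.5, 8.35 and 12.2 CPM in Ctrl and at 10.8, 36.7, 11.7 and 5.31 CPM in Csn8AKO, where the single high library was again Csn8AKO 2. Cyp26c1 was between 0.623 and 1.09 CPM in Ctrl and between 0.648 and 1.24 CPM in Csn8AKO. Neither was called, and neither passed an unadjusted p under 0.05 with edgeR, DESeq2 or limma voom. Cyp20a1 was at 17.6 ± 1.31 and 20.1 ± 3.35 CPM (adjusted p = 0.549).

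In BAT, the largest called rises were in Cyp11a1 and Cyp4f18, both from very low levels, and the one with the smallest adjusted p was in Cyp1b1. The falls were in abundant genes, led by Cyp4v3 and Cyp2j6, at log2 fold changes beyond -1. Of 33 members tested, 4 were called higher and 5 lower. Over all 22345 genes tested, 16.0% were called higher and 15.8% lower, so that the members' shares of 12.1% and 15.2% were near the background. Scaling by library size alone gave 6 members higher and 3 lower, and 4183 genes higher and 2087 lower in place of 3585 and 3536. The members' median log2 fold change was 0.14, against 0.01 over all genes. Groups did not overlap for 3 members in each direction, against 10.1% of all genes on the higher side and 10.9% on the lower side.

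Cyp1b1 (chr17:79701537-79715061, - strand) was the only xenobiotic member called in BAT, of 11 tested. The share of the class called higher was 9.09%, against 16.0% of all genes tested. Cyp1b1 was at 9.67, 9.42, 8.36, 9.89 and 6.69 CPM in Ctrl and at 21.8, 17.4, 20.4, 21.5 and 27.1 CPM in Csn8AKO. The groups were well apart, with a log2 fold change of 1.30 ± 0.13 SE (adjusted p = 9.51e-06). The 10 fibroblast and progenitor markers, all called higher, moved with it, from a sum of 1123 to 1893 CPM in Ctrl to 2851 to 4882 CPM in Csn8AKO, and so did the macrophage markers, 10 of 12 called higher, whose sum over all 12 was 165 to 270 CPM in Ctrl and 375 to 496 CPM in Csn8AKO. No marker of either list was at 0 in any library. The part of these cells in the rise was not tested. The 250 bases before its start (chr17:79715062-79715311, - strand, GRCm38.p6) are shown because the gene is a known AHR target, and they hold 1 copy of the complement of GCGTG.
Cyp1b1: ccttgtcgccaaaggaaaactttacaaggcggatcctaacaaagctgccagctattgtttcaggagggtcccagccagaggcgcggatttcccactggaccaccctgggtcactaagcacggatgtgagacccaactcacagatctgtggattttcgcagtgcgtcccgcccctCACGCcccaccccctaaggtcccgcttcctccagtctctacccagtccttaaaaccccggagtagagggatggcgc

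Cyp2e1 in BAT was at 23.1, 20.9, 19.1, 61.6 and 20.05 CPM in Ctrl and at 7.20, 24.4, 5.19, 4.17 and 13.5 CPM in Csn8AKO. Csn8AKO 2, the BAT library with the most ribosomal RNA, reached into the Ctrl range. The log2 fold change of -1.43 ± 0.58 SE did not pass (adjusted p = 0.0928). Cyp2e1 was called in 3 of 19 alternative fits, without Csn8AKO 2, with DESeq2 and with limma voom. Over the 19 fits its log2 fold change was between -2.06 and -0.95, and its adjusted p between 0.00152 and 0.259. The part of RNA quality in the levels of Csn8AKO 2 was not tested. Ctrl 4 and Csn8AKO 2 were also the high libraries for Cyp2b10, which was at 2.90, 2.96, 20.2, 52.0 and 6.62 CPM in Ctrl and at 10.1, 38.0, 7.42, 12.7 and 7.05 CPM in Csn8AKO. The groups of Cyp2b10 overlapped throughout (adjusted p = 0.906). Cyp2b13 was highest in these libraries too, at 0.517 and 0.434 CPM. Cyp2b9, in contrast, did not exceed 0.0369 CPM in any BAT library, and was not tested there.

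Among the steroid members, 2 rose and 1 fell in BAT, of 7 tested. These shares of 28.6% and 14.3% rest on few genes, against 16.0% higher and 15.8% lower over all genes tested. Cyp11a1 (chr9:58006411-58027023, + strand) was at 0.103, 0.0169, 0.0323, 0.0369 and 0.126 CPM in Ctrl and at 0.995, 0.867, 0.275, 0.629 and 0.802 CPM in Csn8AKO. The level stayed below 1 CPM in every BAT library, yet the groups did not overlap and the log2 fold change was 3.52 ± 0.50 SE (adjusted p = 0.000122). With 1 to 7 counts in the Ctrl libraries and 8 to 59 in the Csn8AKO libraries, the gene passed the filter only through the group where it was high. Of 6 mast cell markers tested, 5 were called higher in the same comparison, and the sum over the 8 on the list overlapped between groups, at 19.3 to 60.0 CPM in Ctrl and 31.1 to 74.6 CPM in Csn8AKO. The part of mast cells or macrophages in the Cyp11a1 level was not tested.

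Cyp2r1 (chr7:114549682-114562972, - strand), which carries out the first hydroxylation of vitamin D, was at 0.620, 0.728, 0.597, 0.480 and 0.577 CPM in Ctrl and at 0.860, 0.986, 0.962, 0.793 and 1.67 CPM in Csn8AKO. The groups did not overlap, and the log2 fold change was 0.79 ± 0.25 SE (adjusted p = 0.0257). The call was lost, among others, without Csn8AKO 5, Ctrl 3 or Ctrl 4. Cyp27a1 (chr1:74713574-74737892, + strand) fell, from 53.9, 53.3, 39.7, 52.5 and 59.8 CPM to 29.4, 47.1, 25.9, 32.7 and 23.2 CPM. Csn8AKO 2, the BAT library with the most ribosomal RNA, lay among the Ctrl libraries. The log2 fold change was -0.71 ± 0.17 SE (adjusted p = 0.00841). Without the Csn8AKO libraries rich in muscle markers, 1 and 5, it was -0.56 (adjusted p = 0.0513). Cyp7b1 was at 0.310, 0.322, 0.452, 0.314 and 0.288 CPM in Ctrl and at 0.607, 0.197, 0.894, 0.575 and 1.04 CPM in Csn8AKO, and did not pass (adjusted p = 0.0536).

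The fatty acid class held 5 of the 9 BAT calls, 1 higher and 4 lower of 12 tested. These were 8.33% and 33.3% of the class, against 16.0% and 15.8% of all genes tested. Cyp2j6 (chr4:96516138-96553661, - strand), an epoxygenase of arachidonic and linoleic acid, was at 27.9, 23.4, 26.3, 25.9 and 23.997 CPM in Ctrl and at 14.0, 11.0, 9.52, 10.9 and 11.0 CPM in Csn8AKO. The groups were far apart, with a log2 fold change of -1.17 ± 0.11 SE (adjusted p = 3.46e-06). Its neighbour Cyp2j9 was at 3.07 ± 0.450 and 3.32 ± 0.507 CPM (SD, n = 5, adjusted p = 0.609). In sWAT Cyp2j6 was at 14.6, 15.5, 14.6 and 18.7 CPM in Ctrl and 15.8, 6.38, 13.8 and 9.20 CPM in Csn8AKO, with the groups overlapping (adjusted p = 0.336).

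Cyp4v3 (chr8:45304944-45333216, - strand) was at 38.3, 33.6, 30.6, 37.9 and 36.3 CPM in Ctrl BAT and at 16.3, 21.6, 12.3, 13.1 and 12.2 CPM in Csn8AKO BAT. Every Csn8AKO library was below every Ctrl library, and the log2 fold change was -1.23 ± 0.15 SE (adjusted p = 3.63e-05). Cyp4f13, of the leukotriene-inactivating family (chr17:32924688-32947402, - strand), went from 35.6, 33.2, 43.1, 43.5 and 33.4 CPM to 31.5, 31.7, 23.4, 28.9 and 26.7 CPM. The change was small but without overlap, at -0.41 ± 0.11 SE on the log2 scale (adjusted p = 0.0106). With library size alone its adjusted p was 0.119.

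Cyp2u1 had higher CPM in BAT than in sWAT, at 55.9, 57.1, 71.4, 58.9 and 70.1 CPM in Ctrl and 37.7, 63.5, 43.7, 53.4 and 44.9 CPM in Csn8AKO. Levels were scaled within each tissue, and the difference in level between tissues was not tested. Csn8AKO 2, the BAT library with the most ribosomal RNA, lay within the Ctrl range. The fall of 0.37 ± 0.13 SE on the log2 scale was at the edge of the threshold (adjusted p = 0.0429). It was lost in 10 of 19 alternative fits, with adjusted p values from 0.00364 to 0.237, among them those without Ctrl 3, 4 or 5 or without Csn8AKO 1, 3, 4 or 5.

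Cyp4f18 (chr8:71988482-72009626, - strand) rose from 0.362, 0.102, 0.0323, 0.221 and 0.0721 CPM to 1.35, 0.315, 0.172, 2.23 and 0.267 CPM. The groups overlapped, with Csn8AKO 1 and 4 far above the rest, and the log2 fold change was 2.63 ± 0.78 SE (adjusted p = 0.0237). Without Ctrl 2, 3 or 5, or without Csn8AKO 4, it was not called. Zfp961 on the opposite strand covers 9.76% of its exons and had 5349 counts, against 883 for Cyp4f18. Whether counting used the strand is not given in the sources used here, so reads of the shared stretch may belong to either gene. Cyp4b1 was at 30.6, 34.4, 44.8, 54.9 and 76.4 CPM in Ctrl and at 47.5, 53.4, 68.4, 67.5 and 93.2 CPM in Csn8AKO, which overlap (adjusted p = 0.233).

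No retinoid member was called in BAT by edgeR, where 1 of 2 passed an unadjusted p under 0.05. DESeq2 called 1 and limma voom none. Cyp26b1 was at 4.47, 30.3, 14.2, 3.10 and 5.03 CPM in Ctrl and at 2.90, 2.37, 4.47, 5.16 and 3.51 CPM in Csn8AKO. The Ctrl group was wide because of its libraries 2 and 3, and the difference did not pass (-1.63 ± 0.64 SE, adjusted p = 0.0866). Cyp26c1 was between 0.559 and 1.05 CPM and between 0.394 and 1.24 CPM. Cyp20a1 was at 9.14 ± 0.545 and 10.1 ± 0.497 CPM (adjusted p = 0.280).

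**Figure D3:**
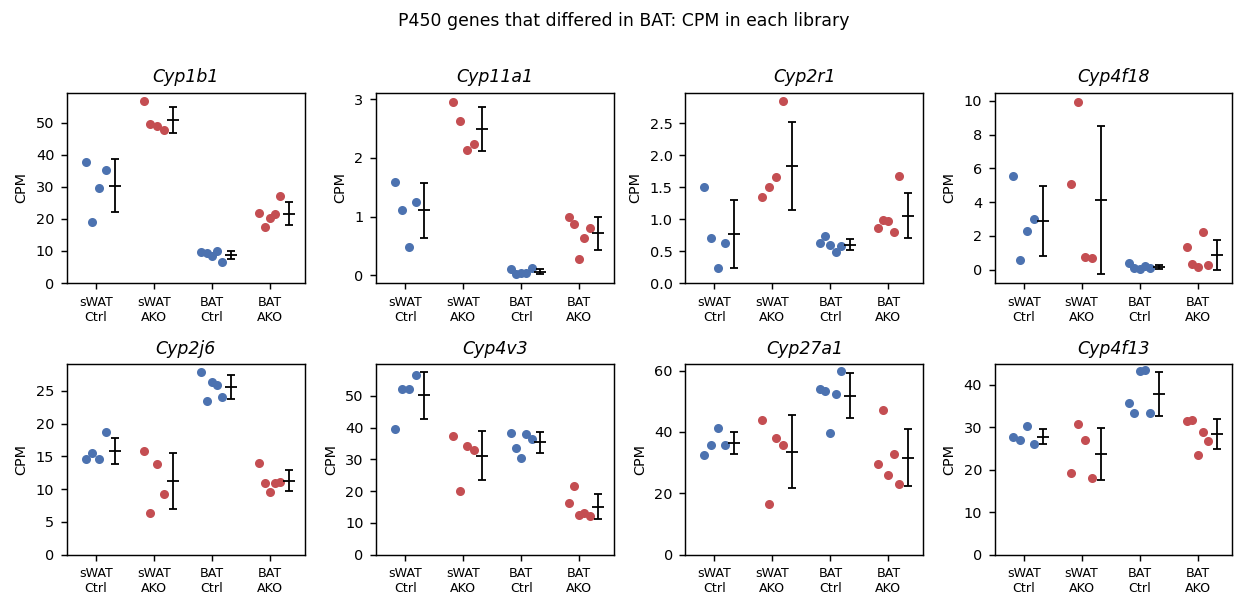
CPM of 8 of the P450 genes called in BAT, drawn for both tissues. Each point is 1 library (blue Ctrl, red Csn8AKO, written AKO on the axis, n = 4 per sWAT group and 5 per BAT group) and the black marks give mean ± SD; in BAT the Cyp1b1, Cyp11a1 and Cyp2r1 groups are separate with Csn8AKO higher, and the Cyp2j6, Cyp4v3 and Cyp4f13 groups are separate with Csn8AKO lower.

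The difference between the genotype effects in BAT and sWAT was tested over all 18 libraries. Of 22509 genes, 2.36% were called in either direction, 362 with the BAT change above the sWAT change and 170 below it (494 and 39 with library size alone, which moved the median over all genes to 0.21), and 3 of 41 members tested were. Cyp2f2 fell in sWAT and was not called in BAT, a difference of 3.06 ± 0.43 SE on the log2 scale (adjusted p = 0.000623). Cyp2u1 fell more in sWAT, by a difference of 1.46 ± 0.26 SE (adjusted p = 0.00480). Cyp2b9 rose in sWAT and was barely detected in BAT, with a fitted difference of -10.58 (adjusted p = 0.0122), which depends on how the model treats groups at 0 and gives no bound. For Cyp2b13 the fitted difference of -7.50 did not pass (adjusted p = 0.0815). Cyp2e1 fell in sWAT and its BAT change was not called, but the effects were not shown to differ (1.34 ± 0.74 SE, adjusted p = 0.424). The same held for Cyp1b1 (0.54 ± 0.23 SE, adjusted p = 0.262), Cyp2j6 (-0.71 ± 0.28 SE, adjusted p = 0.212), Cyp4v3 (-0.56 ± 0.27 SE, adjusted p = 0.325) and Cyp2b10 (-3.38 ± 1.43 SE, adjusted p = 0.265). Cyp11a1 just missed the threshold (2.31 ± 0.61 SE, adjusted p = 0.0511). Of the 13 members called within a tissue, only Cyp2u1 was called in both.

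**Figure D4:**
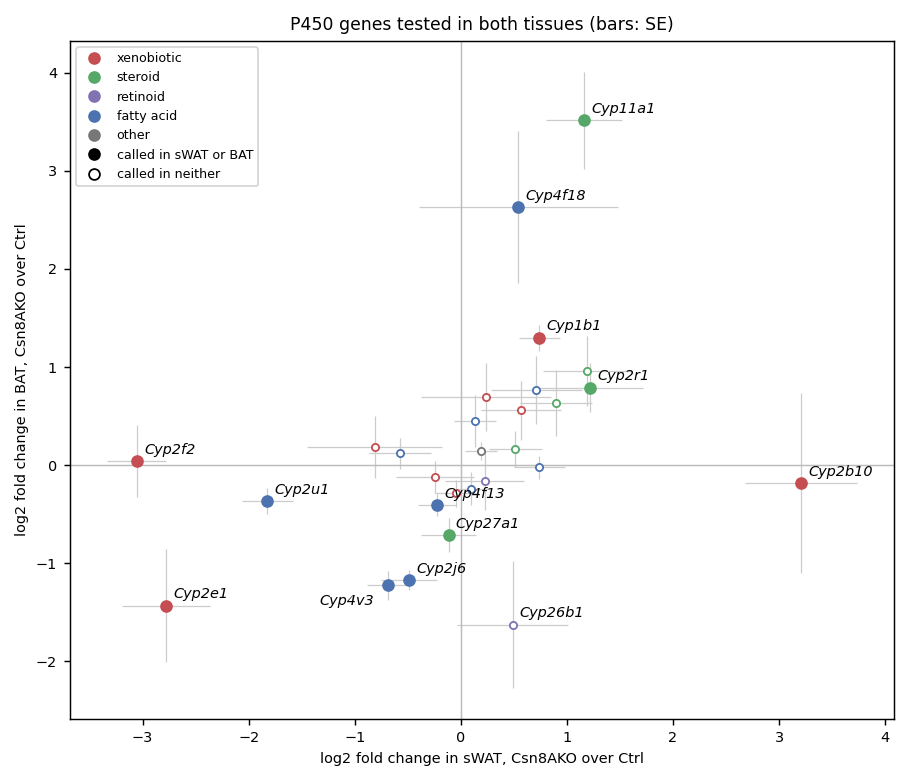
Log2 fold change of Csn8AKO over Ctrl in sWAT (x axis) and in BAT (y axis) for the 28 P450 genes tested in both tissues, with bars of 1 SE. Colour gives the class and filled points were called in at least 1 tissue; Cyp2f2 and Cyp2b10 lie near 0 on the BAT axis and Cyp11a1 is the highest on it.

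Of the 44 members, 31 were called in no comparison. Among these, Cyp4a14, Cyp4f14, Cyp17a1, Cyp2b13 and Cyp3a13 failed the filter in both tissues and were not tested within a tissue. Cyp4a14, a fatty acid omega hydroxylase, was at 0.0803 ± 0.0988 CPM in Ctrl sWAT, had 0 counts in Csn8AKO sWAT, and was at 0.314 ± 0.281 and 0.401 ± 0.573 CPM in BAT. Cyp17a1, the enzyme that leads to androgens, did not exceed 0.724 CPM in any library. Cyp2d22, the leading xenobiotic gene of BAT, was at 66.2 ± 9.10 and 54.3 ± 12.1 CPM there (adjusted p = 0.120) and at 30.0 ± 5.69 and 29.1 ± 6.55 CPM in sWAT (adjusted p = 0.934).

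Among the P450 genes outside the rule, Tbxas1, the thromboxane synthase of platelets and macrophages, rose in both tissues. It was at 15.0 ± 2.96 and 26.7 ± 3.82 CPM in sWAT (log2 fold change 0.83 ± 0.18 SE, adjusted p = 0.0278) and at 3.64 ± 0.397 and 7.87 ± 1.41 CPM in BAT (1.12 ± 0.15 SE, adjusted p = 7.35e-05). The 12 macrophage markers summed to 1045 to 1461 CPM in Ctrl sWAT and to 1547 to 2829 CPM in Csn8AKO sWAT, with 8 called higher. Their part in the Tbxas1 level was not tested. Ptgis, the prostacyclin synthase, and Cyp51, of cholesterol synthesis, were called in neither tissue (adjusted p = 0.225 and 0.862 in sWAT, 0.580 and 0.978 in BAT).

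Por, the electron donor of the microsomal enzymes, went from 699 ± 131 to 301 ± 79.9 CPM (log2 fold change -1.22 ± 0.24 SE, adjusted p = 0.0193) and in BAT from 503 ± 55.4 to 402 ± 16.7 CPM (-0.32 ± 0.09 SE, adjusted p = 0.0172). It was the only called gene of the 7 electron donors tested in sWAT and of the 8 tested in BAT. Of 13 genes of heme synthesis and breakdown, 1 rose and 2 fell in sWAT, and 1 rose and 5 fell in BAT. Over all genes tested, 2.30% were called higher and 3.00% lower in sWAT, and 16.0% and 15.8% in BAT. Hmox1, which degrades heme, was the one that rose in both tissues, by 1.38 on the log2 scale in sWAT (adjusted p = 0.00222) and by 2.16 in BAT (adjusted p = 9.81e-05). Alas1, the rate-limiting step of heme synthesis, fell by 1.01 on the log2 scale in sWAT (adjusted p = 0.0204), and Alad fell in both tissues. In BAT, Blvrb, Fech and Blvra also fell, by 0.75, 0.39 and 0.74. The 10 adipocyte markers summed to 21102 to 27515 CPM in Ctrl sWAT and 7112 to 17274 CPM in Csn8AKO sWAT, with 3 called lower and a median log2 fold change of -0.81. The 8 brown adipocyte markers summed to 73.4 to 149 CPM in Ctrl sWAT and to 11.4 to 27.6 CPM in Csn8AKO sWAT. Of 7 tested there, 2 were called lower, and 2 had a positive log2 fold change. The part of a smaller share of adipocytes, or of cells with brown adipocyte markers, in the falls of Por, Alas1, Cyp2e1, Cyp2f2 and Cyp2u1 was not tested. In BAT the 10 adipocyte markers overlapped between groups, at 10293 to 12866 and 10587 to 12337 CPM.

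Of the xenobiotic receptors and conjugating partners, 1 rose and 4 fell among 18 tested in sWAT, and 2 rose and 5 fell among 19 tested in BAT. The shares over all genes tested were 2.30% higher and 3.00% lower in sWAT, and 16.0% and 15.8% in BAT. Ephx1, the microsomal epoxide hydrolase, rose in both, by 1.04 (adjusted p = 0.0173) and 2.27 (adjusted p = 5.82e-06) on the log2 scale. Fmo1, a flavin monooxygenase, fell by 1.75 in sWAT (adjusted p = 0.00285), Sult1a1, a sulfotransferase, by 1.22 (adjusted p = 0.00531) and Fmo5 by 1.02 (adjusted p = 0.0294). In BAT the falls with the smallest adjusted p were Fmo5, by 1.25 (adjusted p = 2.14e-05), Rxrg, by 0.75 (adjusted p = 0.000294), and Aox1, an aldehyde oxidase, by 1.43 (adjusted p = 0.000208). Ahr did not differ by the test in either tissue (adjusted p = 0.968 and 0.352). Nr1i3, the receptor through which Cyp2b genes are induced in liver, was at 0.0130 ± 0.0260 and 0.155 ± 0.310 CPM in sWAT and was not tested there.

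The steroid and sterol partners had 2 that fell among 19 tested in sWAT, Hsd11b1, which regenerates active glucocorticoid, by 1.13 (adjusted p = 0.0201) and Tspo, a mitochondrial cholesterol-binding protein, by 0.91 (adjusted p = 0.0204). In BAT 2 rose and 3 fell among 15 tested. Tspo fell by 0.63 (adjusted p = 0.000266) and Hsd17b4 by 0.56 (adjusted p = 0.00340), while Vdr, the vitamin D receptor, rose by 1.53 (adjusted p = 0.00714) and Star, which carries cholesterol to Cyp11a1, by 0.35 (adjusted p = 0.0314). The retinoid partners had 1 that rose and 3 that fell among 21 tested in sWAT, and 4 in each direction among 21 tested in BAT. Beside both lists, 2.30% of all genes tested were called higher and 3.00% lower in sWAT, and 16.0% and 15.8% in BAT. In sWAT Dhrs9, a retinol dehydrogenase, rose by 1.89 (adjusted p = 0.00815), and Adh1, Rbp4 and Dhrs4 fell by 1.18, 1.23 and 0.74. In BAT Aldh1a2, which makes retinoic acid, rose from 0.135 ± 0.0722 to 1.47 ± 0.367 CPM (3.44 ± 0.35 SE, adjusted p = 8.05e-06), Dgat1 rose by 1.02, and Adh1 and Rdh10 fell by 1.01 and 0.66.

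Of the fatty acid and eicosanoid partners, 7 of 17 tested rose in BAT, where 16.0% of all genes tested were called higher. Counts of falls, and counts in sWAT, are not reported here for this list. Ltc4s and Alox5ap, both of leukotriene synthesis, rose by 2.04 (adjusted p = 8.13e-07) and 1.82 (adjusted p = 5.16e-05), the phospholipase Pla2g4a by 1.59 (adjusted p = 0.000186), and Faah, which hydrolyses fatty acid amides, by 1.85 (adjusted p = 0.00312). In the same comparison 10 of 12 macrophage markers and 5 of 6 mast cell markers tested were called higher, and their part in these rises was not tested.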

How the data were processed

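Genes were counted in RNA from sWAT (8 libraries) and BAT (10 libraries), 1 mouse each, grouped by the labels. Libraries were depleted of ribosomal RNA by the authors, who read both ends over 150 bases, used STAR 2.7.9a with the Ensembl GRCm38 assembly, and counted unique, unambiguous reads per gene with featureCounts. The deposited counts were used without change. The deposited normalized columns were not used. Whether counting used the strand is not given in the sources used here.

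Genotypes were compared within each tissue, on all genes, with edgeR 4.0.16 (filterByExpr, TMM, robust quasi-likelihood test) and Benjamini-Hochberg adjustment. The threshold for a call was 0.05 after adjustment. The interaction used 1 fit over 18 libraries. CPM are TMM-scaled within each tissue, and levels between genes are per kilobase of gene length. Levels were not tested between tissues. A group at 0 was set to 3 counts. The code was tested on simulated data. Alternatives were RLE factors, library size alone, no filter, DESeq2 1.42.0, limma voom 3.58.1, no ribosomal RNA genes, a replicate block, 1 fit for all groups, a log2 fold change of at least 1, and each library left out. Fits without libraries that stood apart were chosen after seeing the data. Whether replicate numbers pair the mice is not given by the labels, and the main test used no pairing. All members and lists were chosen with earlier results of these data known.

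Named genes are the members called in any comparison, the most abundant member of each class and tissue, up to 5 members of a class with the smallest p, members that failed the filter, and up to 4 called genes per partner list. Genes just outside these, such as Cyp1a1, Cyp2j9, Cyp4f17, Cyp2d9, Cyp3a11 and Cyp7a1, were chosen after their values were seen. Promoter sequences are from RefSeq on GRCm38.p6. No protein sequence was used here. The result for 1 gene of the fatty acid and eicosanoid list is not reported here.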

Additional observations from a re-analysis of the deposited data

Results flagged for a closer look

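Among 68 groups of values of members shown library by library, 4 had 1 library far from the others by Dixon's criterion, where chance alone gives about 1 in 20. In BAT these were Cyp2e1 in Ctrl 4 at 61.6 CPM, Cyp2b10 in Csn8AKO 2 at 38.0 CPM, Cyp2r1 in Csn8AKO 5 at 1.67 CPM and Cyp7b1 in Ctrl 3 at 0.452 CPM. Without Csn8AKO 5, the Cyp2r1 call in BAT was lost, with a log2 fold change of 0.58.

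For 3 members the change in BAT differed from that in sWAT by the interaction test over 18 libraries, as the BAT change minus the sWAT change on the log2 scale. The differences were 3.06 for Cyp2f2, 1.46 for Cyp2u1 and -10.58 for Cyp2b9. Cyp2f2 and Cyp2u1 were called in all 25 alternative fits of the interaction, and Cyp2b9 in 24, the exception being the fit without Ctrl 4 of BAT (adjusted p = 0.0644). The tissues also differed in age, and the 2 cannot be told apart.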

How the results depend on the processing

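The falls of Cyp2f2 and Cyp2u1 in sWAT, and the changes of Cyp1b1, Cyp11a1, Cyp2j6 and Cyp4v3 in BAT, were called in all 19 alternatives, though Cyp11a1 had 1 to 7 counts in the Ctrl libraries. Members higher in sWAT, 2 as reported, were 4 with no filter, 5 with DESeq2, 6 with limma voom and 4 in 1 fit for all groups. They were 5 without the libraries rich in B cell markers and 1 without those rich in hepatocyte and muscle markers. Without Csn8AKO 3 and 4, the libraries with the most ribosomal RNA, they were 0, and only 2 Csn8AKO libraries remain there. Members higher in BAT, 4 as reported, were 2 with no filter and 7 with limma voom, and members lower in BAT, 5 as reported, were 3 with library size alone, which moved the median over all genes to 0.14, 3 without the libraries rich in muscle markers, and 2 with a log2 fold change of at least 1. With limma voom the interaction had 6 called members in place of 3. Leaving out 1 library at a time gave 2 to 3 higher and 3 lower in sWAT, 2 to 6 higher and 4 to 7 lower in BAT, and 2 to 6 in the interaction. The labels do not say whether the replicate numbers pair the mice. Correlations of -0.39 to 0.22 between same-numbered libraries cannot decide it, because library composition also enters them. With a replicate block, 2 members were higher and 3 lower in sWAT, 7 higher and 5 lower in BAT, and 3 were called in the interaction.

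Signs turned only for members that were not called in that tissue. Cyp4f18 in sWAT was -0.68 with limma voom, -0.13 with the replicate block and -0.35 to 1.09 with 1 library left out. Cyp27a1 in sWAT was 0.066 without the libraries rich in B cell markers and -0.27 to 0.11 with 1 library left out. Cyp2b10 in BAT was 0.16 with limma voom, 0.29 with the replicate block, 0.18 without the libraries rich in muscle markers and -0.85 to 0.88 with 1 library left out. Cyp2f2 in BAT was -0.16 with limma voom, -0.0072 in 1 fit for all groups, -0.19 without the libraries rich in muscle markers and -0.19 to 0.22 with 1 library left out. The causes were not tested. Members under about 1 CPM rest on few counts, and the sWAT libraries were shallower than those of BAT.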
